A study of Mus musculus with 45 samples.

Results

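The comparison described here is the effect of a high-fat diet on the mouse heart under sidestream cigarette smoke, the smoke that drifts from the burning tip of a cigarette. It sets 8 hearts of diet-induced obese mice in sidestream smoke (DIO-SS) against 7 hearts of regular weight mice in the same smoke (RW-SS), taken by their titles from the 45 hearts of the series. All mice were male C57BL/6 and were purchased at 13 weeks of age. The obese mice had eaten a diet with 60% of its calories from fat since 6 weeks of age, for 9 weeks before exposure, and the regular weight mice ate a diet with about 5% throughout. The 2 diets were different commercial products, so fat content and other ingredients cannot be told apart. Exposure began at 15 weeks and was by the nose only, 5 hours a day, as 8 exposures over 2 weeks, and the hearts were taken on the day after the last one. The same diet contrast in filtered air, with 8 obese (DIO-SC) and 8 regular weight mice (RW-SC), shares no array with it and was used to ask which changes of the obese heart were also found in smoke. The contrast in mainstream smoke, the smoke drawn through the cigarette, had 6 obese (DIO-MS) and 8 regular weight mice (RW-MS).

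The heart burns mainly fatty acids, and the amount of fat it receives sets the expression of the enzymes that burn it. Fatty acids switch on the receptor PPAR alpha, which raises genes for uptake, storage in droplets, transport into mitochondria and beta-oxidation. It also raises Pdk4, a kinase that shuts off pyruvate dehydrogenase and so spares glucose. Smoke inhalation is a separate load on the animal, which can change food intake, stress hormones, oxygen transport and the enzymes that clear smoke compounds.

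Each array gave log2 expression values, on which 1 unit is a doubling, and 9295 genes were tested. The 12 cardiomyocyte markers all passed the filter on dim genes, with Myh6, the main myosin heavy chain of the mouse heart, between 14.37 and 14.48 in RW-SS and between 14.38 and 14.42 in DIO-SS. Of markers of neighbouring tissues with a probe set, 5 of 12 for skeletal muscle, 4 of 8 for lung and 3 of 7 for liver were bright enough to test. Myh4, a fast skeletal myosin, was at most 3.66 in RW-SS and 3.55 in DIO-SS, and Scgb1a1, an airway gene, had a median of 3.60 in DIO-SS with 8.84 on its highest array. RW-SS replicate 7 had a Gapdh 3′ minus 5′ difference of 0.94, against at most 0.40 on the other 44 arrays, which is a sign of shorter RNA. RW-SS replicate 2 lay nearest to the obese mice among the RW-SS arrays in 10 of the 12 largest rises described next, and replicate 4 in 6 of the 12 largest falls. RW-SS replicates 2 and 4 also had the most red cell transcripts. Calls of named genes that end without replicates 2 and 4 are given with and without them.

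Under sidestream smoke 3030 of the 9295 genes (32.6%) passed an adjusted p of 0.05 in limma, 1832 higher (19.7%) and 1198 lower (12.9%) in DIO-SS. Most differences were small: the median size among them was 0.21 on the log2 scale, and 36 genes rose and 31 fell by at least 1.5-fold. In air 1883 genes (20.3%) passed, 643 higher (6.92%) and 1240 lower (13.3%), with 16 rises and 24 falls of at least 1.5-fold. In mainstream smoke 985 genes (10.6%) passed, 478 higher (5.14%) and 507 lower (5.45%). Without RW-SS replicate 7 the count in sidestream smoke was 3048, and without replicates 2 and 4 it was 2557. With the mean of the red cell markers as a term in the fit it was 1684, 1048 higher and 636 lower.

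The split into rises and falls depended on scaling. After a further quantile normalization 1142 genes were higher and 1442 lower in DIO-SS, so that 44.2% in place of 60.5% were higher, and with arrays centred on their mean 54.6% were. Brightness moved with this split. In the dimmest of 4 equal groups of tested genes 127 were higher and 550 lower, while in the brightest 680 were higher and 173 lower, and after quantile normalization the brightest gave 381 and 332. Every named gene of the sidestream comparison had the same direction before and after quantile normalization.

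The largest rise was that of Angptl4, an inhibitor of lipoprotein lipase and a classic fatty acid-induced gene (chromosome 17, 33774900 to 33781575 in GRCm38.p6, as for the other positions given). Its RW-SS values were 5.66, 6.81 and 7.88 (lowest, median and highest) and its DIO-SS values 7.83, 8.31 and 9.43. The groups met only through RW-SS replicate 2, the highest of the RW-SS mice. The difference was 1.77 ± 0.26 (SE; adjusted p = 2.584e-06), 3.4-fold, and it was 1.10 in air.

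Acot1, a cytosolic thioesterase that frees fatty acids from coenzyme A (chromosome 12, 84009502 to 84017670), read 6.48, 6.80 and 7.85 in RW-SS and 8.04, 8.23 and 8.38 in DIO-SS. Every DIO-SS heart lay above every RW-SS heart, as did 5.00% of all tested genes. The difference was 1.34 ± 0.12 (adjusted p = 2.449e-11) and 1.201 in air. The mitochondrial Acot2 lies next to it (83987861 to 83993877), and rose by 1.16 ± 0.09 (adjusted p = 8.971e-13), against 0.89 in air. These are close copies, and probe sets for one may also bind the other.

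**Figure D1:**
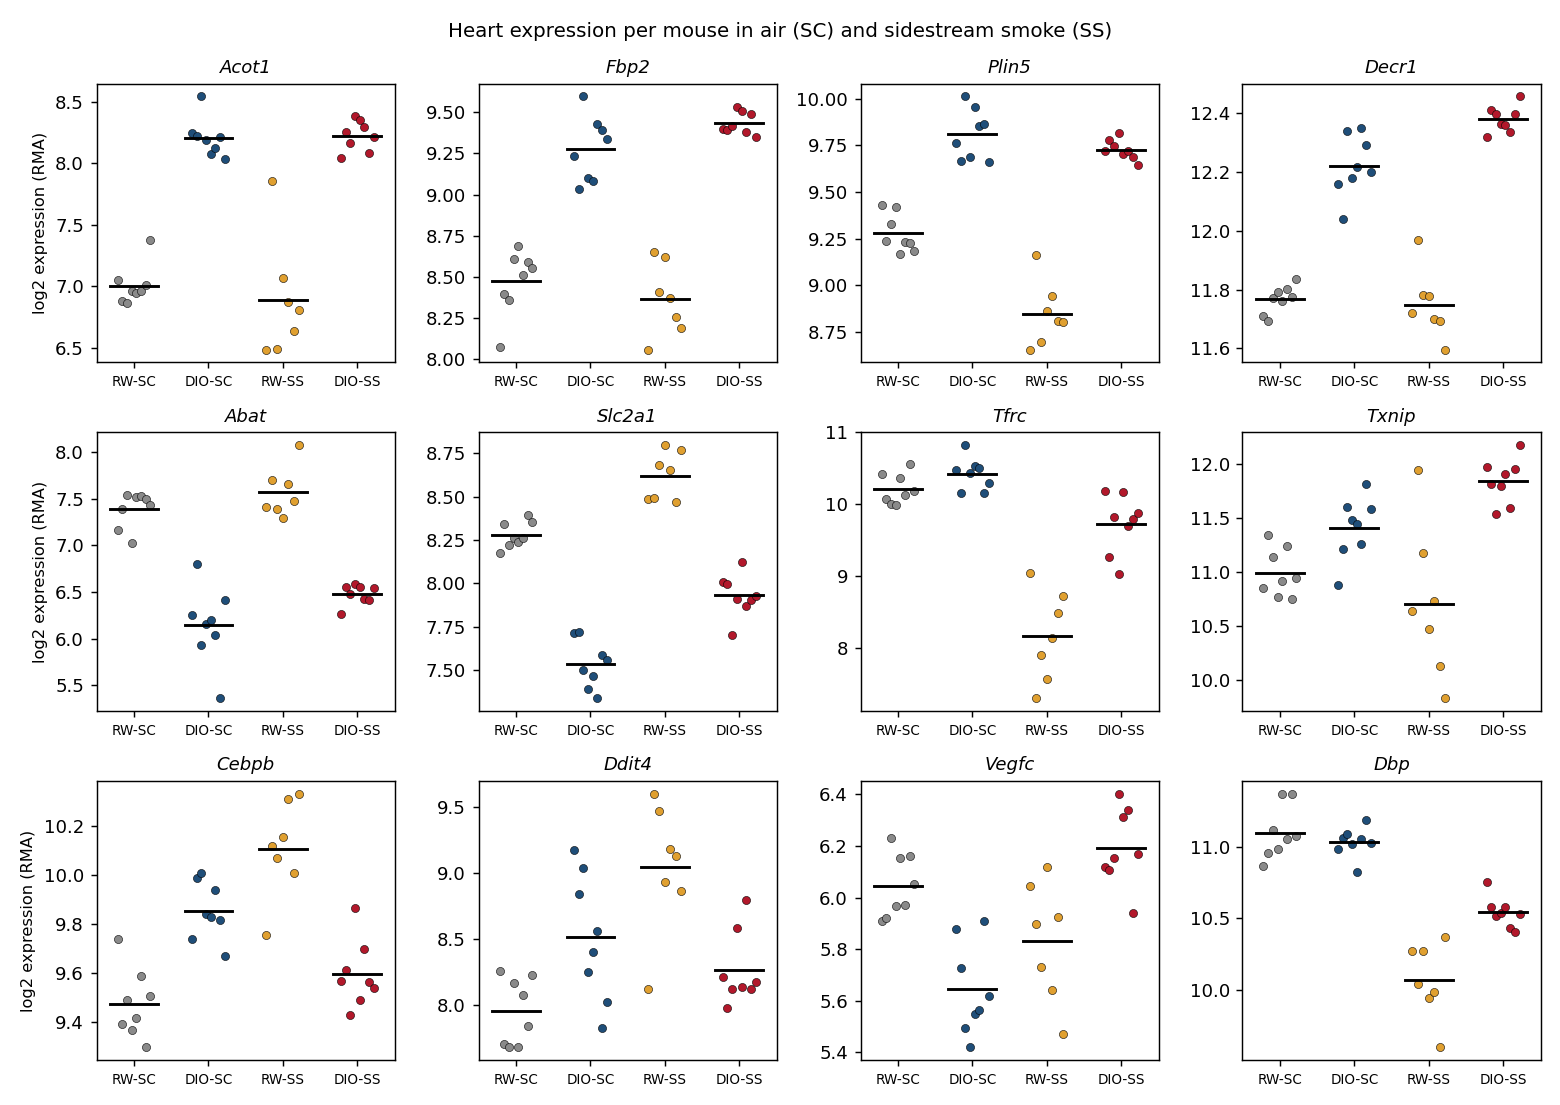
Log2 expression of 12 genes on every array of the air (SC) and sidestream (SS) groups, with regular weight (RW) and obese (DIO) mice; points are mice and lines are group means. Acot1, Fbp2, Plin5, Decr1, Abat and Slc2a1 separate the diets in both exposures, while Tfrc, Txnip and Dbp are lowest in RW-SS, and Cebpb and Ddit4 are highest there.

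Further rises were found among genes of fat handling and glucose sparing. Pdk4 read 9.67, 10.55 and 11.98 in RW-SS and 11.35, 11.89 and 12.16 in DIO-SS, a difference of 1.21 ± 0.19 (adjusted p = 4.552e-06). RW-SS replicate 2 was again the one mouse inside the obese range, and without it the difference was 1.44. In air Pdk4 rose by 1.85, and the sidestream minus air difference of -0.64 did not pass (adjusted p = 0.05902). Fbp2, the muscle fructose bisphosphatase of gluconeogenesis, rose by 1.07 ± 0.10 (adjusted p = 2.955e-11), and by 0.80 in air. Its sidestream groups did not overlap, at 8.06 to 8.65 and 9.35 to 9.53. Ucp3, a mitochondrial carrier induced by fatty acids, rose by 1.02 ± 0.15 (adjusted p = 1.157e-06), and by 0.86 in air.

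Plin5, which coats lipid droplets and ties them to mitochondria, had values of 8.65, 8.81 and 9.16 in RW-SS and 9.65, 9.72 and 9.82 in DIO-SS. The groups were fully apart, and the difference of 0.88 ± 0.07 (adjusted p = 4.338e-13) was larger than the 0.53 in air (difference of the 2 effects 0.35, adjusted p = 0.006445). The obese mice of both exposures had similar levels of Plin5, with means of 9.73 in DIO-SS and 9.81 in DIO-SC, whereas RW-SS, at 8.85, lay below RW-SC, at 9.28. Hsd17b11, a droplet-bound dehydrogenase, rose by 0.86 ± 0.07 (adjusted p = 2.188e-13), and by 0.66 in air.

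The enzymes of fatty acid oxidation rose as a group. Of 28 tested members 22 were higher, 1 was lower and 5 did not pass, and their median difference was 0.34 against 0.02 for all tested genes. In air 20 were higher and 2 lower, with a median of 0.26, and 21 of the 28 passed in both exposures with the same sign. Decr1, the reductase that prepares unsaturated fatty acids for oxidation, rose by 0.63 ± 0.05 (adjusted p = 5.8e-14). Its RW-SS values reached 11.97 and its DIO-SS values began at 12.32. Cpt2, the inner carnitine palmitoyltransferase, rose by 0.58 ± 0.04 (adjusted p = 2.993e-13), from 10.98 ± 0.09 (SD, n = 7) to 11.56 ± 0.06 (SD, n = 8). The carnitine carrier Slc25a20 rose by 0.36 in smoke and by 0.53 in air, and this difference passed (-0.16, adjusted p = 0.02585). It rests on 1 of 2 probe sets, since the mean of both gave -0.05 (adjusted p = 0.5003). The member that fell was Ppara itself, by 0.18 in both exposures, named after its values were seen.

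Of 19 tested genes of lipid uptake, droplets and uncoupling 11 were higher and 1 was lower, and 9 and 2 in air. Fabp3, the heart's fatty acid binding protein and one of its most abundant transcripts, rose by 0.23 ± 0.02 (adjusted p = 1.189e-11). The rise was small, yet RW-SS ended at 13.85 and DIO-SS began at 14.01. Gpam, the first enzyme of triglyceride assembly, rose by 0.53 (adjusted p = 3.625e-07), and by 0.57 in air.

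Glucose transporters fell. Slc2a1, the basal glucose transporter GLUT1, read 8.47, 8.65 and 8.80 in RW-SS and 7.70, 7.92 and 8.12 in DIO-SS. Every obese heart was below every regular weight heart, as in 2.21% of all tested genes, and the difference was -0.69 ± 0.07 (adjusted p = 2.896e-10), against -0.75 in air. The insulin-regulated transporter GLUT4, Slc2a4, fell by 0.29 (adjusted p = 3.407e-06). Of 18 genes of glucose transport and glycolysis 6 were lower and 3 higher, with a median of -0.02, against 6 lower and none higher in air. Of 39 respiratory chain genes 5 were higher and none lower, a smaller share than the 19.7% of all tested genes.

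Among ketone-handling enzymes Bdh1, which interconverts the ketone bodies, fell by 0.75 ± 0.12 (adjusted p = 1.409e-05), and Oxct1, which activates them for burning, fell by 0.20 (adjusted p = 2.888e-06). Abat, a transaminase that breaks down GABA and valine intermediates (chromosome 16, 8513429 to 8621568), read 7.29 to 8.07 in RW-SS and 6.27 to 6.58 in DIO-SS. It fell by 1.10 ± 0.14 (adjusted p = 1.863e-07), and by 1.24 in air. Acadsb, of branched-chain acyl-CoA oxidation, fell by 0.29 (adjusted p = 1.733e-07). Bex1, a small brain-expressed protein family member on the X chromosome, fell by 1.16 ± 0.25 (adjusted p = 0.0004668), and by 1.37 in air. Pcx, pyruvate carboxylase, fell by 0.42 (adjusted p = 0.007117) on a control probe set of the array, and its regular probe set gave -0.43.

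The 2 largest falls were in fatty acid synthesis, and fat cell transcripts varied widely beside them. Scd1, the stearoyl-CoA desaturase, read 7.63, 11.33 and 12.77 in RW-SS and 7.75, 8.54 and 10.30 in DIO-SS, a difference of -2.20 ± 0.71 (adjusted p = 0.01595). Fasn, fatty acid synthase, fell by 1.85 ± 0.60 (adjusted p = 0.01594), and Elovl6, an elongase, fell with a difference of -1.495 ± 0.53 (adjusted p = 0.02621). The call of Elovl6 ended without RW-SS replicate 1 or without DIO-SS replicate 5. Replicate 4 was the lowest RW-SS mouse in Scd1 and Fasn, and without it the Scd1 difference was -2.75. Adipoq, the fat cell hormone adiponectin, ran from 5.08 to 11.24 in RW-SS and from 7.08 to 10.66 in DIO-SS, and its difference of -0.77 did not pass (adjusted p = 0.565). Of 12 tested fat cell markers 2 were lower, Scd1 and Fasn themselves, and 1 was higher, with a median of -0.80. The markers' mean ran from -1.85 to 1.37 in RW-SS and from -1.42 to 0.47 in DIO-SS, relative to RW-SC. With that mean as a term in the fit, which Scd1 and Fasn themselves enter, their differences were -0.92 and -0.77. The part of attached fat in the falls was not tested. In bulk tissue, fewer cells of a type and less RNA per cell cannot be told apart. Elovl3, another elongase, fell by 1.45 ± 0.35 (adjusted p = 0.001793) with no overlap between the groups.

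The comparison with air asked which of the obese heart's changes persisted in smoke. Counted as persistent were genes past the threshold in both exposures with the same sign. They numbered 453 (4.87% of tested genes), which is 24.1% of the air list and 15.0% of the sidestream list, and 246 were higher and 207 lower. A further 241 genes passed in both with opposite signs. The remaining 1189 genes of the air list did not pass in smoke, and 595 of them had the same sign there. Across all tested genes the 2 sets of differences correlated at r = 0.28, which is a description over genes that are not independent. It depended on the filter, at 0.155 with no filter on dim genes and 0.483 with the dimmest 50% left out.

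The larger changes in air were shared with smoke more often than the list as a whole. Of the 40 genes that changed at least 1.5-fold in air, 39 had the same sign in smoke and 27 also passed there, 13 of the 16 that rose and 14 of the 24 that fell. The one with the other sign was Evi2a, named after its values were seen, at -0.64 in air and 0.10 in smoke. A gene that did not pass in smoke is not thereby shown to differ from air, so the difference of the 2 diet effects was fitted as well. It passed for 8 of these 40 genes, for 45 of the 453 persistent genes, and for 620 of the 1189 found in air but not in smoke. Over all genes it passed for 2641 (28.4%), 1700 with a higher and 941 with a lower effect in smoke, and after quantile normalization for 1587.

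**Figure D2:**
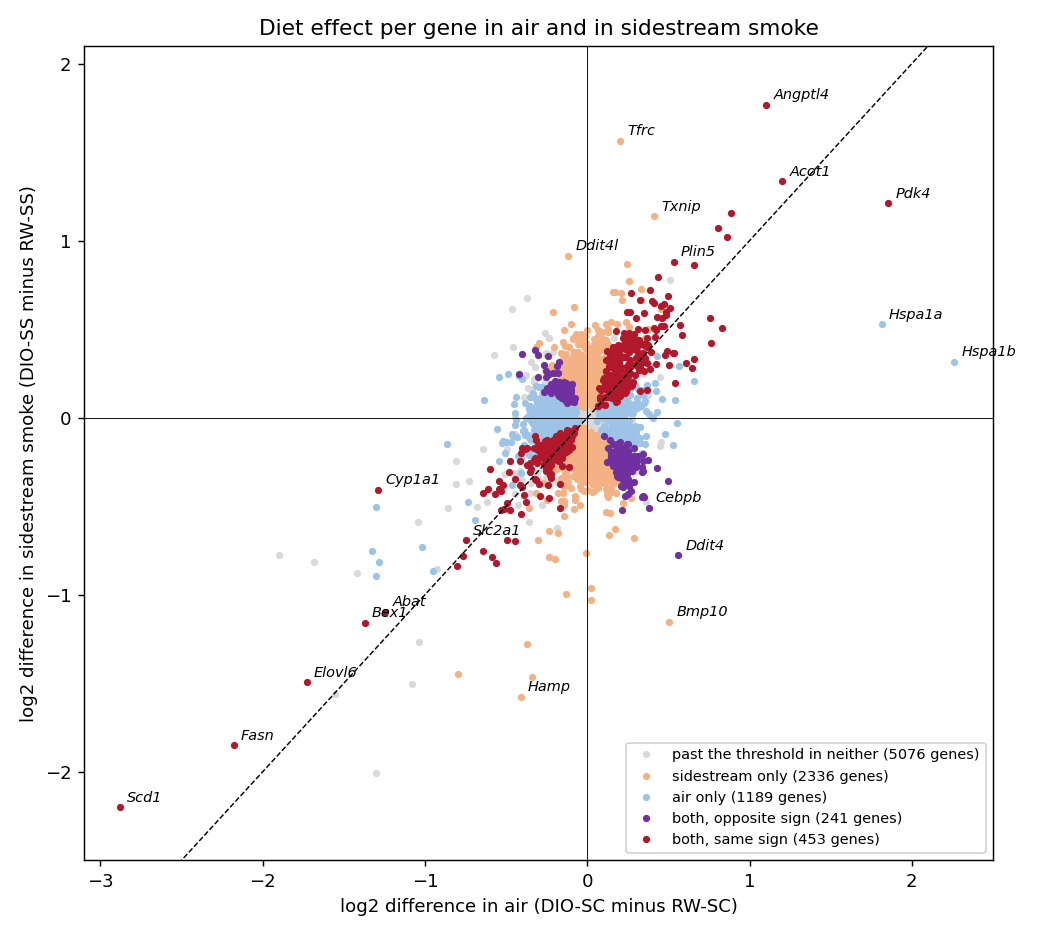
Log2 difference of obese minus regular weight hearts in air (horizontal) and in sidestream smoke (vertical), 1 point per tested gene, coloured by where it passed an adjusted p of 0.05; the dashed line marks equal effects. Acot1, Abat and Slc2a1 lie near the line, Hspa1a and Hspa1b far to its right, and Tfrc, Txnip, Angptl4 and Plin5 above it.

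The clearest loss was that of the inducible heat shock protein 70 genes, which encode chaperones that refold damaged proteins. Hspa1b (chromosome 17, 34956429 to 34959238) read 7.08 to 7.43 in RW-SC and 8.59 to 10.81 in DIO-SC, a rise of 2.26 in air (adjusted p = 2.44e-09). In smoke the RW-SS values were 7.16, 7.37 and 7.91 and the DIO-SS values 7.27, 7.81 and 8.06. The smoke groups overlapped, the difference of 0.32 ± 0.25 did not pass (adjusted p = 0.3421), and the gap to air was -1.95 ± 0.35 (adjusted p = 0.000179). Its other probe sets gave 0.49 and 0.50 in smoke and 2.14 and 2.29 in air. Hspa1a, next to it (34969359 to 34972156), rose by 1.82 in air and differed by 0.53 in smoke (adjusted p = 0.06784), a gap of -1.29 (adjusted p = 0.002689). Its 7 RW-SS values ended at 6.25 and its DIO-SS values began at 6.43, so the groups did not overlap although the test did not pass. With the red cell mean as a term this difference passed, at 0.81 (adjusted p = 0.02875). In mainstream smoke the diet differences of Hspa1b and Hspa1a were 0.55 and 0.43, and neither passed.

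The 250 bases before the transcription start are shown for these genes and for 2 of the chaperone genes that rose in both exposures. They are given because heat shock factor 1 is known to act through repeats of the pentamer NGAAN in such promoters. The sequences are from RefSeq on GRCm38.p6, 5′ to 3′ on the gene's strand. Capitals mark every match to GAANNTTC or TTCNNGAA, each of which reads the same on both strands, and matches may overlap. For Hspd1 only 30 bases around its matches are shown.
Hspa1a, chr17:34972157-34972406, minus strand: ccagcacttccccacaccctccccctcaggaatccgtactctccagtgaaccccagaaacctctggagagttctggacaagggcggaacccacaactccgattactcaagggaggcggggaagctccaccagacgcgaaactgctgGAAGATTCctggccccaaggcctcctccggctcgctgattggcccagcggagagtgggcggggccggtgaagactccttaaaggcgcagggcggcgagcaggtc
Hspa1b, chr17:34959239-34959488, minus strand: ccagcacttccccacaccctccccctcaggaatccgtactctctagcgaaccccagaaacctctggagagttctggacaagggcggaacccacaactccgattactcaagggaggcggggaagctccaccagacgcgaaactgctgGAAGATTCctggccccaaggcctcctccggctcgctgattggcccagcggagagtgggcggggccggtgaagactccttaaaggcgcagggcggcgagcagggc
Dnaja1, chr4:40722218-40722467, plus strand: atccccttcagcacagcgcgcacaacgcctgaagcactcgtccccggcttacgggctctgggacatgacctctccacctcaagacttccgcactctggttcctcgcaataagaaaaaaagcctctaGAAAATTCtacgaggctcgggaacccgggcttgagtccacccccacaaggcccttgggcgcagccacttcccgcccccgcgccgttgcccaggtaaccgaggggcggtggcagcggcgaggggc
Hspd1, chr1:55088053-55088082, minus strand: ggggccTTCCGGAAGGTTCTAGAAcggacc
The Hspa1a and Hspa1b stretches are identical at 247 of 250 bases and carry the same single match, GAAGATTC. That likeness extends to their transcripts, so their probe sets may not tell them apart. Dnaja1 has 1 match in the first of its 3 listed promoters and Hspd1 has 3 that run into each other in the second of its listed promoters. Dnajb1, named after its values were seen, also rose in both, by 0.66 in air and 0.33 in smoke. Neither of its listed promoters has a match. One or both patterns occur in 12.84% of the 32851 RefSeq promoters scanned in the same way, and in 8 of the 19 heat shock genes with a listed promoter. The match is a description and does not show that the factor binds.

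Dnaja1, a co-chaperone of heat shock protein 70, read 9.24, 9.35 and 9.77 in RW-SS and 9.74, 9.92 and 10.09 in DIO-SS. It rose by 0.51 ± 0.10 (adjusted p = 9.537e-05) and by 0.83 in air, and the gap did not pass (adjusted p = 0.0623). Hspd1, the mitochondrial chaperonin, rose alike in both, by 0.29 (adjusted p = 1.137e-08) and 0.27, with RW-SS ending at 11.41 and DIO-SS beginning at 11.54. Of 24 heat shock genes 9 were higher and 2 lower in smoke, against 14 and none in air. In 6 the call was shared with the same sign and in 1 with the opposite sign.

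**Figure D3:**
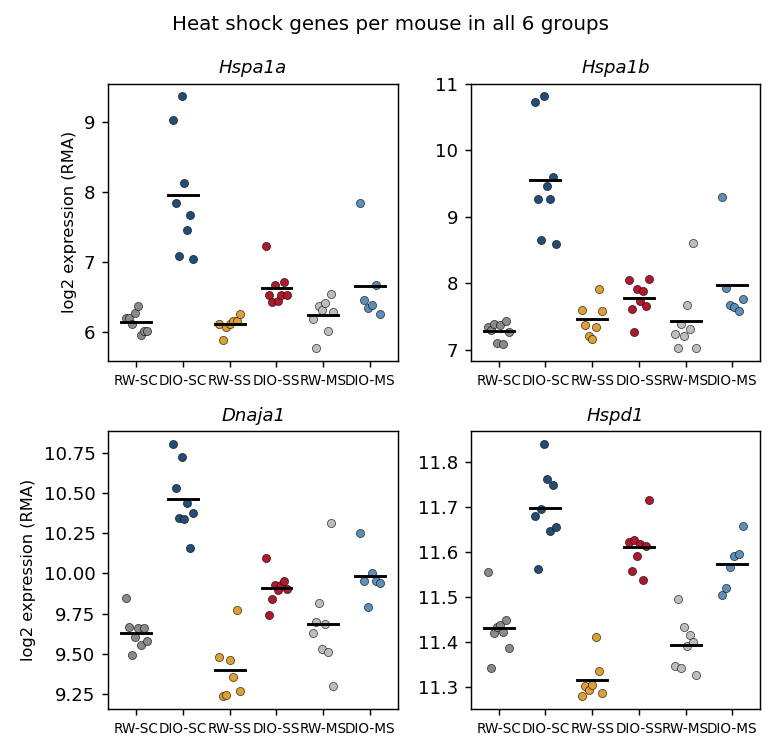
Log2 expression of 4 heat shock genes on every array of the 6 groups; points are mice and lines are group means. In Hspa1a and Hspa1b the DIO-SC mice stand above all RW-SC, RW-SS and DIO-SS means, with Hspa1b at 8.59 to 10.81 in DIO-SC and 7.27 to 8.06 in DIO-SS.

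Other genes that changed in the obese heart in air had smaller differences in smoke, and the gap was tested for each. Cyp1a1, which oxidizes the aromatic hydrocarbons of smoke and is the standard target of the aryl hydrocarbon receptor, fell by 1.29 in air and by 0.41 ± 0.12 in smoke (adjusted p = 0.01003). Its values in smoke were 5.26 to 5.85 in RW-SS and 4.53 to 5.53 in DIO-SS. The difference of effects was 0.88 (adjusted p = 0.0003774). With the red cell mean as a term the difference in smoke was -0.39 and did not pass (adjusted p = 0.06314). In mainstream smoke it was 0.34 higher in obese mice (adjusted p = 0.0761), and the sidestream effect lay below that by 0.75 (adjusted p = 0.0101). Cth, cystathionine gamma-lyase, fell by 0.86 in air and differed by -0.15 in smoke (adjusted p = 0.2908), and that gap passed (adjusted p = 0.0008162). Rrad, a small GTPase that restrains calcium channels, fell by 0.54 in air and was 0.23 higher in smoke (adjusted p = 0.1234), a gap of 0.77 (adjusted p = 0.0007654). Retn, Acly, Pygl and Tkt, which fell by 1.28 to 1.33 in air, differed by -0.50 to -0.89 in smoke without passing. Their gaps did not pass either. Bcl6 rose by 0.76 in air and by 0.42 in smoke (adjusted p = 0.01458), and its gap of -0.34 did not pass (adjusted p = 0.1722). Its call in smoke ended without RW-SS replicates 2 and 4 (0.35, adjusted p = 0.07542). It also ended with the red cell mean as a term (0.24, adjusted p = 0.29). Vegfa, the vascular growth factor, rose by 0.31 in air and differed by 0.07 in smoke (adjusted p = 0.4048), and its gap of -0.24 did not pass (adjusted p = 0.05019).

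Many glucocorticoid-responsive genes parted between the exposures. Of 26 tested members 12 were higher and 2 lower in air, while 3 were higher and 9 lower in smoke. The difference of effects passed as lower in smoke for 11 and as higher for none. Of all tested genes 10.1% had a lower and 18.3% a higher effect in smoke by this test. The shares of all tested genes called were 6.92% higher and 13.3% lower in air, and 19.7% and 12.9% in smoke. In 3 genes, Cebpb, Ddit4 and Tsc22d3, the calls had opposite signs, the last being named after its values were seen. In 5 genes the call was shared with the same sign. With the red cell mean as a term 3 members were higher and 6 lower in smoke. Cebpb, a transcription factor of metabolism and inflammation, read 9.75, 10.12 and 10.33 in RW-SS and 9.43, 9.57 and 9.87 in DIO-SS, a fall of 0.51 ± 0.07 (adjusted p = 4.461e-07). In air it rose by 0.38 (adjusted p = 7.177e-05), and the gap of -0.89 had an adjusted p of 1.072e-07. Ddit4, an inhibitor of the growth kinase mTORC1, fell by 0.78 ± 0.18 in smoke (adjusted p = 0.001019) and rose by 0.56 in air (adjusted p = 0.01793). RW-SS replicate 1, at 8.12, was the one regular weight mouse among the obese values of Ddit4. Fkbp5, a cochaperone of the glucocorticoid receptor, rose by 0.53 in air and differed by -0.16 in smoke (adjusted p = 0.4115), a gap of -0.68 (adjusted p = 0.009395). Glul, glutamine synthetase, fell in both, by 0.45 (adjusted p = 2.693e-08) and 0.24. The metallothionein Mt2 fell by 0.69 (adjusted p = 0.0001507), and by 0.49 in air. The 3 rises were Angptl4, Pdk4 and Lcn2, the first pair also fatty acid targets, and Lcn2, lipocalin 2, rose by 0.52 (adjusted p = 0.005397).

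The levels of the 4 groups can be set side by side. Mean Cebpb was 9.48 in RW-SC, 9.85 in DIO-SC, 10.11 in RW-SS and 9.60 in DIO-SS. Mean Ddit4 was 7.96, 8.52, 9.04 and 8.27 in the same order. For both, RW-SS was the highest of the 4 groups. The mean of the whole list, relative to RW-SC, ran from 0.03 to 0.55 in RW-SS, from 0.16 to 0.42 in DIO-SS and from 0.17 to 0.34 in DIO-SC, so the smoke groups overlapped. Levels across exposures were not tested.

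**Figure D4:**
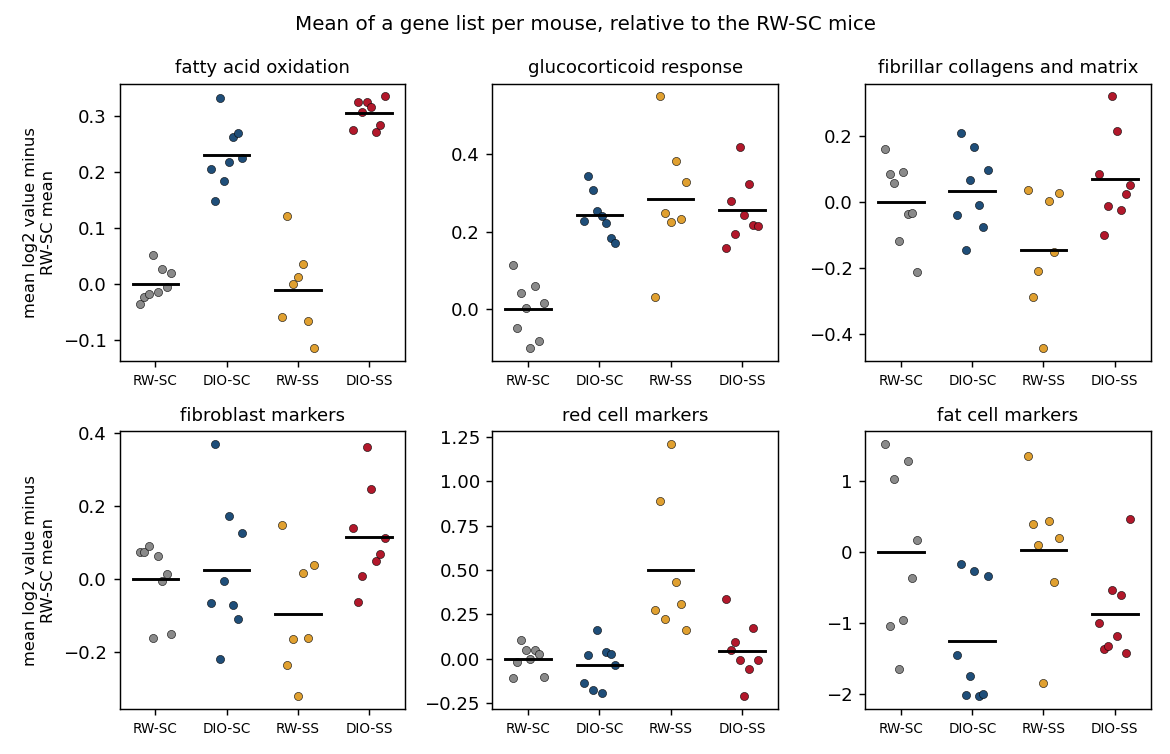
Mean log2 value of 6 gene lists on every array, relative to the mean of the RW-SC mice; points are mice and lines are group means. The fatty acid oxidation mean separates the diets in both exposures, at -0.12 to 0.12 in RW-SS and 0.27 to 0.34 in DIO-SS, while the red cell mean runs from 0.17 to 1.21 in RW-SS and from -0.21 to 0.34 in DIO-SS.

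Of the 241 genes with opposite signs 95 were higher in smoke, among them Vegfc and Ahr. This split also depended on scaling. After quantile normalization 28 of 167 such genes were higher in smoke, and with centred arrays 47 of 247 were. Vegfc, a growth factor of lymphatic vessels, fell by 0.40 in air (adjusted p = 0.001049) and rose by 0.36 ± 0.09 in smoke (adjusted p = 0.002456). Ahr, the aryl hydrocarbon receptor, fell by 0.32 in air and rose by 0.39 in smoke (adjusted p = 0.0007467), but the mean of its probe sets gave 0.11 (adjusted p = 0.06892), so its rise rests on 1 of 2 probe sets.

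In a second set of genes the diet effect was larger in smoke than in air, and only Grk5 among those named here also passed in air. Tfrc, the receptor through which cells take up transferrin-bound iron (chromosome 16, 32608896 to 32632794), read 7.30, 8.14 and 9.05 in RW-SS and 9.04, 9.81 and 10.19 in DIO-SS. It rose by 1.56 ± 0.19 (adjusted p = 4.645e-08), 2.96-fold, against 0.20 in air (adjusted p = 0.4598), a gap of 1.36 (adjusted p = 0.0004237). The air groups lay higher, at 9.99 to 10.56 in RW-SC and 10.15 to 10.82 in DIO-SC, so RW-SS lay below both. In mainstream smoke the rise was 1.58, and RW-MS was low as well, at 7.96 to 8.88. The mean of its 6 probe sets, the others dimmer and 3 of them array controls, gave 0.49 (adjusted p = 6.02e-07) and a gap to air of 0.25 (adjusted p = 0.04971), so the size of both rests on the brightest probe set. Txnip, a glucose-responsive inhibitor of thioredoxin and of glucose uptake, rose by 1.14 ± 0.17 (adjusted p = 2.423e-06) with a gap of 0.73 to air (adjusted p = 0.01968). Ddit4l, a second inhibitor of mTORC1, rose by 0.91 ± 0.15 (adjusted p = 1.836e-05), from 4.96 to 6.19 in RW-SS to 6.37 to 6.88 in DIO-SS, and differed by -0.12 in air. Klf10, a transcription factor induced by TGF beta, rose by 0.87 ± 0.13 (adjusted p = 1.488e-06). Bdnf, a neurotrophin, rose by 0.60 (adjusted p = 8.164e-05) and differed by -0.21 in air, a gap of 0.81 (adjusted p = 0.0003382). Atf5, of the mitochondrial stress response, rose by 0.48 (adjusted p = 3.698e-07), and Grk5, a kinase that silences beta-adrenergic receptors, by 0.66 ± 0.08 (adjusted p = 1.036e-08), against 0.33 in air (adjusted p = 0.001206).

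Of 16 clock genes 5 were higher in smoke and none lower, against 1 and 1 in air. After quantile normalization 4 were higher and 1 lower in smoke. The shares of all tested genes were 19.7% higher and 12.9% lower in smoke, and 6.92% and 13.3% in air. Dbp, an output factor of the clock, read 9.60, 10.04 and 10.37 in RW-SS and 10.40, 10.53 and 10.76 in DIO-SS, with no overlap. It rose by 0.47 ± 0.08 (adjusted p = 2.325e-05) and differed by -0.07 in air. Nr1d1, the repressor REV-ERB alpha, rose by 0.43 (adjusted p = 9.333e-05), whereas the core activator Arntl differed by -0.11 (adjusted p = 0.5456). Both Dbp and Nr1d1 were higher in each air group than in each sidestream group, Dbp at 10.87 to 11.37 in RW-SC. The hour at which each group was killed is not given in the sources used here.

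In smoke, matrix genes were higher in obese than in regular weight mice. Of 28 tested genes of fibrillar collagens and matrix 14 were higher and 1 lower, against none higher and 1 lower in air, and their median was 0.25. Relative to RW-SC, the list mean had a median of -0.15 in RW-SS and 0.04 in DIO-SS. It was 0.01 in RW-SC and 0.03 in DIO-SC, so RW-SS was the lowest of the 4 groups. Levels across exposures were not tested. Serpinh1, the collagen chaperone, read 8.74, 9.76 and 10.11 in RW-SS and 10.10, 10.24 and 10.35 in DIO-SS, and rose by 0.67 ± 0.13 (adjusted p = 0.0001726). Tgfb2, a growth factor that drives matrix synthesis, rose by 0.43 (adjusted p = 6.671e-05), and Col1a1, the main fibrillar collagen, by 0.41 ± 0.12 (adjusted p = 0.006525). The member that fell was Timp4, an inhibitor of matrix proteases named after its values were seen, by 0.68. Of 16 basement membrane genes 7 were higher and 1 lower. Col4a2 rose by 0.50 ± 0.07 (adjusted p = 1.819e-07), from at most 9.47 in RW-SS to at least 9.61 in DIO-SS, with a gap of 0.37 to air (adjusted p = 0.002831).

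Markers of fibroblasts and endothelial cells were also higher, but the fibroblast list holds Col1a1, given above with the matrix genes. The 2 lists are therefore not independent. Of 14 fibroblast markers 7 were higher and none lower, and of 12 endothelial markers 7 were higher and none lower. Tcf21, a factor of cardiac fibroblasts, rose by 0.33 (adjusted p = 0.0003743), and Kdr, the endothelial VEGF receptor, by 0.35 (adjusted p = 2.491e-05), both with no overlap. Of the cardiomyocyte markers 1 of 12 was higher and 2 lower. Matrix lists also moved with the red cell mean: with it as a term in the fit 5 of the 28 matrix genes and 1 of the 14 fibroblast markers were higher, as were 2 of the 16 basement membrane genes and 3 of the 12 endothelial markers. After quantile normalization 2 endothelial markers were higher. Without RW-SS replicates 2 and 4 the matrix and fibroblast counts were 8 and 3. Col1a1 then lost its call (0.25, adjusted p = 0.1076), and Serpinh1 passed at 0.34 (adjusted p = 0.002781). With the red cell mean as a term neither passed, Serpinh1 at 0.20 (adjusted p = 0.1392) and Col1a1 at 0.17 (adjusted p = 0.3562). The part of red cells in these results was not tested.

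Red cell transcripts were lower in the obese mice in smoke. Of 5 tested markers 4 were lower, with a median of -0.47, against none in air. Without RW-SS replicates 2 and 4 only 1 was lower, with a median of -0.18. Alas2, which starts heme synthesis in red cell precursors, read 8.23, 8.499 and 10.18 in RW-SS and 7.38, 7.85 and 8.35 in DIO-SS, a fall of 0.96 ± 0.23 (adjusted p = 0.00154). The air groups lay at 7.41 to 7.80 and 7.09 to 8.19, so the high values were those of RW-SS. Without RW-SS replicates 2 and 4 the difference was -0.53 (adjusted p = 0.04601). Bpgm, which makes the phosphate that lowers the oxygen affinity of hemoglobin, fell by 0.53 (adjusted p = 0.009523), and its call ended without RW-SS replicates 2 and 4 (adjusted p = 0.288). Tent5c, a poly(A) polymerase abundant in late red cells, fell by 1.03 ± 0.26 (adjusted p = 0.001989), and by 0.56 without the same pair (adjusted p = 0.06114). Ppbp, a platelet chemokine precursor, fell by 1.28 (adjusted p = 0.005304), and by 0.53 without them (adjusted p = 0.1619). With the red cell mean as a term, Tent5c was at -0.03 (adjusted p = 0.9112) and Ppbp at -0.13 (adjusted p = 0.7941). Neither gene enters that mean. Whether blood left in the tissue differed between the groups was not tested.

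**Figure D5:**
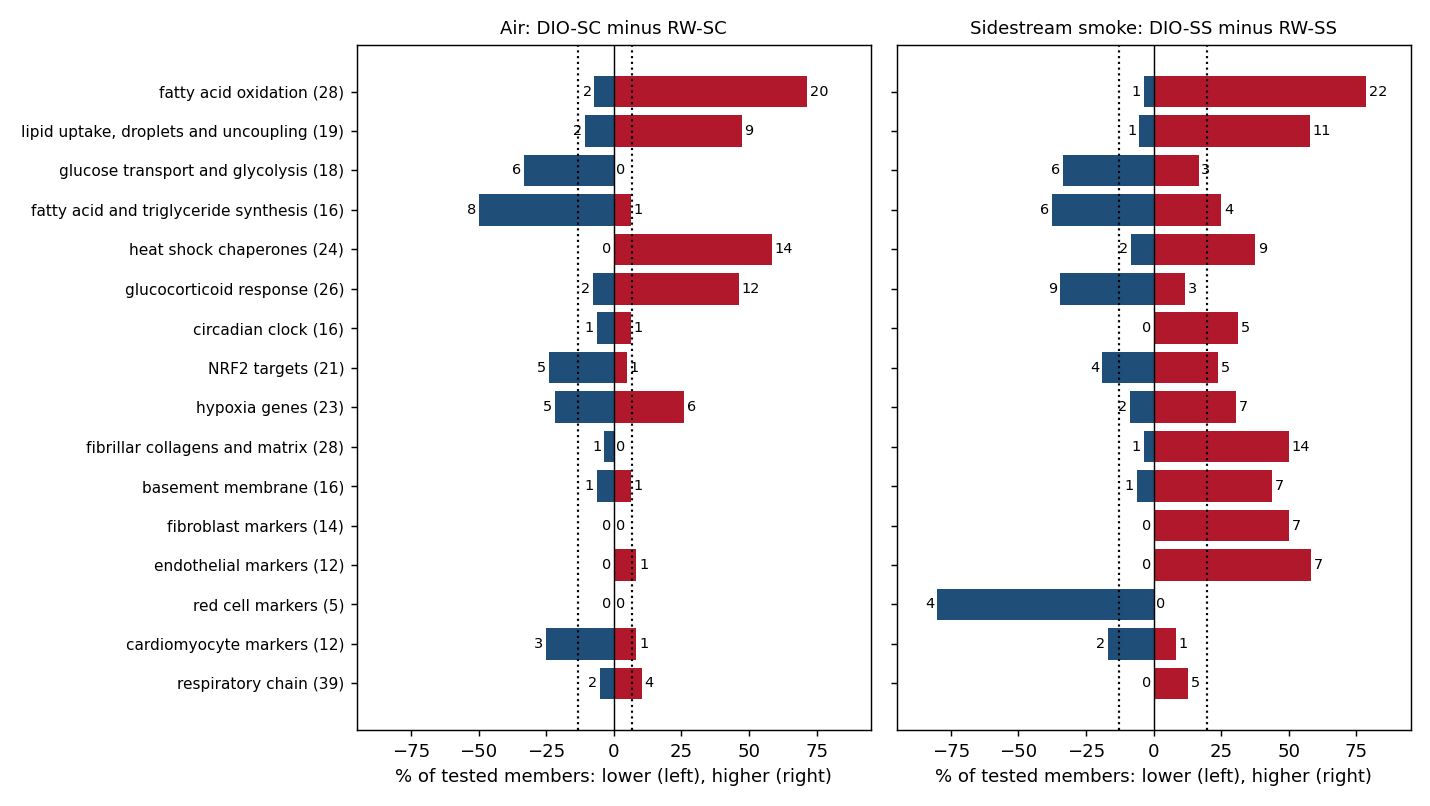
Share of the tested members of 16 gene lists (number tested in brackets) that were higher (right, red) or lower (left, blue) in obese hearts, in air and in sidestream smoke; numbers are gene counts and dotted lines the shares over all 9295 tested genes. Fatty acid oxidation stands out in both panels, with 20 and 22 higher. Of the glucocorticoid genes 12 were higher and 2 lower in air, and 3 were higher and 9 lower in smoke.

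Iron and antioxidant genes moved in both directions. Of 13 tested iron handling genes 2 were higher, Tfrc among them, and 3 lower, and 2 and 6 after quantile normalization. Hamp, the iron hormone hepcidin, fell by 1.58 ± 0.46 (adjusted p = 0.008398), from 5.23 to 8.21 in RW-SS to 4.84 to 6.12 in DIO-SS. Its call ended without RW-SS replicates 2 and 4 (-1.25, adjusted p = 0.06206) and with the red cell mean as a term (-1.16, adjusted p = 0.141). Hmox1, the heme oxygenase, fell by 0.54 ± 0.11 (adjusted p = 0.0002315) and differed by 0.14 in air, a gap of -0.68 (adjusted p = 0.001226). Gclm, the regulatory subunit of the glutathione-making ligase, fell by 0.47 (adjusted p = 3.584e-05), and its catalytic partner Gclc by 0.27 (adjusted p = 5.392e-06). Of 21 NRF2 targets 5 were higher and 4 lower, and 1 and 5 after quantile normalization. Over all tested genes 19.7% were higher and 12.9% lower. Nqo1, its usual marker, differed by -0.15 (adjusted p = 0.1055).

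The calls of some large falls were close to the threshold. Cxcl13, a B cell chemokine, fell by 1.46 (adjusted p = 0.02846). It was -1.32 without RW-SS replicate 2 and -1.19 without replicate 7, and did not pass in either fit. Without RW-SS replicates 2 and 4 together it was -1.29 (adjusted p = 0.09569). Bmp10, an atrial growth factor, read 5.29, 5.46 and 7.78 in RW-SS and 4.85 to 5.41 in DIO-SS, a fall of 1.15 (adjusted p = 0.03165). Without RW-SS replicate 2, 4 or 7, its 3 highest mice, the difference was -0.90, -1.03 or -0.94 and did not pass. With replicates 2 and 4 both left out it was -0.70 (adjusted p = 0.2413). Slc27a2, a fatty acid transporter, fell by 0.997 (adjusted p = 0.03484), and its difference lay between -1.32 and -0.89 when 1 array was left out, without passing in 10 of these fits. Of 13 atrial markers 2 were lower, Bmp10 and the channel gene Kcna5, at -0.46 (adjusted p = 0.007839). Kcna5 was at -0.41 with the red cell mean as a term and did not pass (adjusted p = 0.07271). Markers of ventricular load did not move together: Acta1, the skeletal actin of the stressed heart, rose by 0.71 ± 0.22 (adjusted p = 0.01356), while Nppa, Nppb and Myh7 differed by -0.10, 0.20 and -0.38 and did not pass. The call of Acta1 ended without RW-SS replicates 2 and 4 (adjusted p = 0.09884). With the red cell mean as a term its difference was 0.59 and did not pass (adjusted p = 0.1234).

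Set beside mainstream smoke, the metabolic genes can be read side by side. The diet differences there were 1.10 for Angptl4, 1.33 for Acot1, 1.31 for Pdk4, 0.69 for Plin5 and -0.76 for Slc2a1. The test of sidestream minus mainstream effect passed for 784 genes (8.43%) but not for these 5, nor for Tfrc, Txnip, Cebpb or Ddit4. It passed for Vegfc, at 0.54 (adjusted p = 0.0127), and for Cyp1a1 as given above.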

How the data were processed

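Hearts were measured on one-colour Affymetrix arrays, 1 mouse per array. The deposited values are log2 expression per probe set, made by the authors with RMA per the submitters' processing notes, whose settings these sources do not state. Of 22690 probe sets, 691 that name several genes and 1606 without a listed gene were left out. The array holds 64 control probe sets, and those that name 1 mouse gene were kept; they represent Actb, Gapdh and Pcx. Each of 12394 genes was represented by its brightest probe set, and 9295 genes stayed after the dimmest 25% (mean below 4.90) were removed.

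A model with 1 mean per group was fitted over the 45 arrays (limma 3.58.1, R 4.3.3), with Benjamini-Hochberg adjustment over the tested genes and a threshold of 0.05. The mice are biological replicates per the labels. Named were the 12 largest rises and falls in sidestream smoke, up to 2 genes per list, the 10 largest rises and falls in air, the 6 largest differences in each direction, and a panel of known genes. Members and lists were chosen with earlier results of these data known. Alternatives covered filters, probe sets, scaling, array weights, blocks and left-out arrays. Marker means of red, fat or atrial cells were tried as terms. The sets of arrays left out together were chosen after seeing the data. Tests on simulated data recovered 97% of 1.5-fold changes in sidestream smoke. There 200 genes were changed and each gene varied independently, so variation shared between genes was not simulated. Tables and figures used Python 3.11.15, pandas 2.3.3 and matplotlib 3.10.9.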

Additional observations from a re-analysis of the deposited data

Results flagged for a closer look

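Among 99 genes followed here, 15 single values lay apart from the rest of their sidestream group by Dixon's test. They came out of 198 groups of values checked, and chance alone gives about 1 in 20. Several were on the same array, so they are not independent of each other. In DIO-SS replicate 1 the value that stood apart was Hspa1a at 7.23 (high). In DIO-SS replicate 2 the value that stood apart was Myh7 at 10.18 (high). In DIO-SS replicate 8 the log2 values that stood apart were Slc27a2 at 7.16 (high), Retn at 7.51 (high), Tkt at 10.40 (high), Pcx at 8.03 (high) and Thrsp at 10.06 (high). In RW-SS replicate 1 the value that stood apart was Acly at 10.35 (high). In RW-SS replicate 2 the log2 values that stood apart were Acot1 at 7.85 (high), Ucp3 at 7.98 (high), Cldn5 at 7.94 (high) and Vegfa at 7.72 (low). In RW-SS replicate 4 the value that stood apart was Scd1 at 7.63 (low). In RW-SS replicate 5 the value that stood apart was Hspd1 at 11.41 (high). In RW-SS replicate 7 the value that stood apart was Grk5 at 7.74 (low). No call of Acot1, Ucp3, Hspd1 or Grk5 ended without its array.

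The diet effect differed between sidestream smoke and air for 37 named genes by limma's test of the difference. It was higher in sidestream smoke for 23, with differences on the log2 scale of Tfrc 1.36, Txnip 0.73, Ddit4l 1.03, Plin5 0.35, Klf10 0.62, Cyp1a1 0.88, Bdnf 0.81, Rrad 0.77, Vegfc 0.76, Decr1 0.18, Ddit3 0.21, Atf5 0.39, Dbp 0.54, Nr1d1 0.47, Klf6 0.25, Ahr 0.71, Grk5 0.34, Tgfb2 0.46, Col4a2 0.37, Col1a1 0.44, Tcf21 0.26, Kdr 0.42 and Cth 0.71. It was lower for 14, with differences of Bmp10 -1.66, Tent5c -1.05, Hspa1b -1.95, Hspa1a -1.29, Ddit4 -1.34, Alas2 -0.98, Glul -0.22, Cebpb -0.89, Gclm -0.33, Hmox1 -0.68, Bpgm -0.65, Fkbp5 -0.68, Slc25a20 -0.16 and Kcna5 -0.73. Of all tested genes 28.4% passed this test. After quantile normalization 7 of the 37 did not pass, with adjusted p of 0.0541 for Bmp10, 0.0681 for Decr1, 0.309 for Ddit3, 0.306 for Klf6, 0.124 for Grk5, 0.102 for Col1a1 and 0.124 for Tcf21. In the fit with the red cell mean as a term 11 of the 37 did not pass. Differences were then small for Tent5c (-0.13), Alas2 (-0.09), Bpgm (-0.03) and Gclm (-0.15), and both Alas2 and Bpgm enter that mean. They were -1.29 for Bmp10, 0.18 for Decr1, 0.20 for Ddit3, -0.18 for Glul, 0.22 for Col1a1, 0.23 for Tcf21 and -0.53 for Fkbp5. As a mean of probe sets Decr1 (0.14), Glul (-0.14), Klf6 (0.11), Bpgm (-0.60) and Slc25a20 (-0.05) did not pass.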

How the results depend on the processing

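Across the alternatives 99 genes were followed, some of them not named in the text. Of these, 76 were past the threshold under sidestream smoke, and 59 of the 76 passed in every alternative. The alternatives were 16 settings and 31 that left out 1 array each. Most lost calls came with the red cell mean as a term (15) or without RW-SS replicates 2 and 4 (9). With the red cell mean 1684 genes passed in sidestream smoke, 1048 higher and 636 lower, 1556 differed from air and 105 had opposite signs. Further quantile normalization gave 1142 genes higher in sidestream smoke and 1587 that differed from air. With the dimmest 50% of genes left out 525 were lower and 137 had opposite signs, partly because fewer genes were tested. Opposite signs numbered 478 with array weights and 375 with only the compared groups in the fit. The cause of the other changes was not tested. Leaving out 1 array at a time gave 2616 to 3048 genes in sidestream smoke, 1598 to 1910 higher and 1018 to 1206 lower. It gave 1577 to 2095 in air, 2251 to 2775 for the difference, 402 to 481 shared with the same sign and 182 to 278 with opposite signs.

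Directions turned for 7 named genes. With the red cell mean Alas2 was 0.0091, Bpgm 0.1404, Fkbp5 0.0125 and Nppa 0.1134. With the fat cell mean Adipoq was 0.9639, Nppa 0.3515 and Cyp1b1 0.105 (-0.10 otherwise), and with the atrial mean Nppa was 0.0379. Alas2 and Bpgm enter the red cell mean, Adipoq the fat cell mean and Nppa the atrial mean, so the value of each under its own list's mean shows nothing. Hspa5, at -0.04, was 0.0021 as a mean of its probe sets, and ran from -0.0724 to 0.0093 when 1 array was left out, turning without RW-SS replicate 6 (0.0093) or 7 (0.0023).

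Replicate numbers did not pair the samples, since arrays of the same title number correlated at -0.24 to 0.10 and those of the same description number at -0.02 to 0.15. With the replicate block 3078 genes passed by title number and 2768 by description number. The number of arrays and small differences near the threshold limit the precision: in simulated data 70% of 1.2-fold changes were recovered.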

Other observations

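The counts of several other gene groups are given here. Of endoplasmic reticulum chaperones and genes of the unfolded protein response 8 of 25 were higher and 3 lower in sidestream smoke, against 3 and 1 in air, and 5 were higher after quantile normalization or with the red cell mean. Of genes of the TCA cycle, which burns the acetyl groups of beta-oxidation, 6 of 16 were higher and 2 lower in sidestream smoke, against 0 and 1 in air, but 2 were higher after quantile normalization and 1 with the red cell mean as a term. Of calcium cycling genes 6 of 15 were higher and 1 lower in sidestream smoke, against 1 and 2 in air, but 2 were higher after quantile normalization, 1 with the red cell mean and 3 without RW-SS replicate 7. Of cholesterol synthesis genes 0 of 13 were higher and 3 lower in sidestream smoke, against 0 and 6 in air, and 1 was lower without RW-SS replicate 7. Of immediate early genes, which answer acute stimuli, 7 of 23 were higher and 3 lower in sidestream smoke, against 6 and 0 in air. Of genes of branched-chain amino acid breakdown 2 of 16 were higher and 4 lower in sidestream smoke, against 0 and 4 in air, and 0 and 7 after quantile normalization. Immune lists held few calls: of interferon response genes 0 of 17 were higher and 2 lower in sidestream smoke, against 0 and 1 in air, and of macrophage and MHC class II markers 0 of 16 were higher and 1 lower in sidestream smoke, against 0 and 1 in air. Among all tested genes 19.7% were higher and 12.9% lower in sidestream smoke, and 6.92% and 13.3% in air.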
